A study of Solanum lycopersicum with 36 samples.

Results

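The comparison described here is that of grafted seedlings (GSs) with nongrafted, self-rooted seedlings (NGSs) of tomato after 12 h of salt. Its members are the 6 leaf libraries of that hour, 3 of GSs and 3 of NGSs, out of 36 libraries in 12 groups. Leaves of both kinds of seedling were taken after 0, 6, 12, 24, 48 and 96 h in nutrient solution with 175 mM NaCl, and their RNA was sequenced, with 3 biological replicates a group. The study's material was Zhongza 9, a variety sensitive to salt, and QZ-006, a rootstock of strong salt tolerance, and the GSs were made by split grafting. The variety of the NGSs is not spelled out in the sources used here, and the labels call them self-rooted. No mutation, transgene or other agent was named for either group, and salt was given to both. The NGSs had not been grafted, so an effect of the rootstock and an effect of the graft wound cannot be told apart. No unstressed seedlings of 12 h were analysed here, and salt and the hour of the day cannot be told apart either. The 12 h libraries carry replicate numbers 4, 5 and 6 in each group.

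Chloroplasts catch light with antenna proteins, chlorophyll-binding proteins that surround photosystems I and II and pass the energy on to them. Photosystem II splits water, electrons then travel through carriers such as plastocyanin, and the ATP and NADPH that result are spent in the Calvin cycle, where Rubisco fixes CO2. Most of these proteins are encoded in the nucleus, and the mRNA of many of them rises and falls with light and the circadian clock. In salted leaves, the hormone abscisic acid turns on dehydration genes, water uptake slows, and genes of growth and photosynthesis are commonly turned down. The comparison asks how leaves on a tolerant root and leaves on their own roots differed at this hour.

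The values are FPKM (reads on a gene per length of the gene, scaled for each library). Values of the 3 libraries of a group are listed in the order of replicates 4, 5 and 6. Reads on genes, recovered from the FPKM values, were 19599621 to 21410241 in the 12 h GS libraries and 21151686 to 24896758 in the NGS libraries. The limma fit on log2(FPKM + 1) took in the 20090 genes that reached 1 FPKM in 3 or more of the 36 libraries, and log2 differences below are GS minus NGS on that scale, which understates the change of genes with low values. The standard error (SE) draws on the spread in all 12 groups. Differentially expressed genes (DEGs) had a |log2 difference| of at least 1 and an adjusted p under 0.05 (Benjamini and Hochberg). The FPKM of all genes added up to 654703 to 721757 in the GS libraries and to 546888 to 587281 in the NGS libraries. Setting these sums equal shifted the median log2 difference of all genes from -0.00 to -0.20, and a list median whose sign turned with the scale is named below. The tissue matched its label, since genes of the Rubisco small subunit had 1576 to 18232 FPKM in these libraries, whereas 7 of 8 root and fruit marker genes did not reach the filter. RSI-1, the marker that did, had a log2 difference of -0.33. Psy1, planned as a fruit marker, was placed in the pigment list instead. It passed the filter, with 571 to 4073 reads in the 12 h libraries.

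The libraries of 12 h were less alike within the NGSs than within the GSs. R2 over the genes tested was 0.927 to 0.971 among the GS libraries and 0.857 to 0.890 among the NGS libraries, and the median SD of a gene was 0.176 among GS and 0.281 among NGS libraries (n = 3), the latter the highest of the 12 groups. Each NGS library was closer to at least 1 GS library than to 1 or both of its own group. NGS replicate 5 was closer to GS replicate 5 (R2 of 0.941) than to NGS replicates 4 and 6 (0.890 and 0.860). NGS replicate 6 had an R2 of 0.892 to 0.908 with the GS libraries and of 0.857 and 0.860 with NGS replicates 4 and 5, and NGS replicate 4 was closer to GS replicate 5 (0.879) than to NGS replicate 6 (0.857). Results that rest on NGS replicate 5 are given with and without it.

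At 12 h, 8 genes were upregulated and 1 was downregulated in the GSs relative to the NGSs (9 DEGs, 0.0448% of the genes tested; 0.0398% higher and 0.00498% lower). An unadjusted p under 0.05 was found for 3452 genes (17.2%), of which 2282 were higher (11.4%) and 1170 lower (5.82%). All GS libraries exceeded all NGS libraries for 2316 genes (11.5%), and the reverse held for 1895 (9.43%). The low number of DEGs therefore stood beside many small separations, as the plot of all genes shows. It also depended on the libraries. With only the libraries compared in the limma fit, 0 genes passed, and 2965 had an unadjusted p under 0.05. Leaving out a single GS library gave 1, 116 and 0 DEGs without replicates 4, 5 and 6, and leaving out a single NGS library gave 0, 270 (1.34%) and 60. Without replicate 5 of both groups, an alternative chosen after the data were seen, 587 genes passed (2.92%; 481 higher and 106 lower), all 9 DEGs among them.

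**Figure D1:**
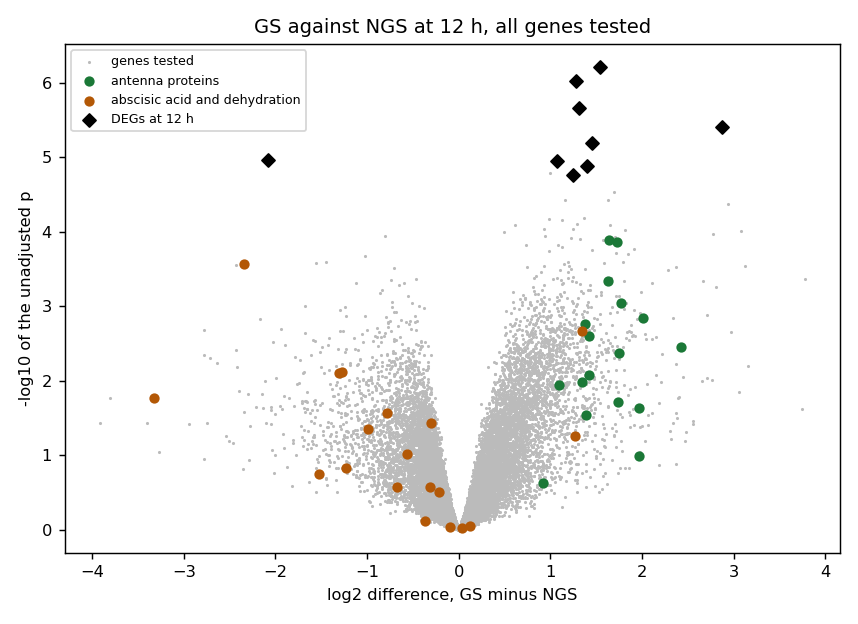
Each point is a gene tested, with the log2 difference GS minus NGS at 12 h on the x axis and −log10 of the unadjusted limma p on the y axis (3 libraries a group). Green points are antenna protein genes, orange points abscisic acid and dehydration genes, and black diamonds the 9 DEGs. The antenna genes all lie to the right of 0, between 0.92 and 2.43.

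None of the 9 DEGs has a named function in the annotation used here, so they are given by identifier. LOC101252103 had 18.7, 9.21 and 22.5 FPKM in the GS libraries and 2.95, 6.24 and 5.68 in the NGS libraries. Every GS library was above every NGS library, and the log2 difference was 1.54 ± 0.24 SE, adjusted p = 0.00946. The level of this gene at 12 h was low in both groups. Its GS mean was 469 ± 46.5 FPKM at 0 h, 16.8 ± 6.82 at 12 h and 423 ± 46.7 at 24 h (± SD, n = 3). At 6 h, the GS mean was 4.53 ± 1.6, below the NGS mean of 9.82 ± 1.37. LOC101266112 had the opposite course. It reached 31, 19.5 and 37.7 FPKM in the GS libraries and 7.07, 10.5 and 12.2 in the NGS libraries at 12 h, a difference of 1.46 ± 0.26 SE, adjusted p = 0.0255, and at the other time points no group mean was above 3.8.

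LOC101262127, annotated as a non-coding RNA, had the largest difference of the DEGs at 12 h. Its level was 18.1, 6.09 and 28.4 FPKM in the GS libraries and 0.539, 1.03 and 2.2 in the NGS libraries, and the difference was 2.88 ± 0.50 SE, adjusted p = 0.0197. The groups did not overlap, but the lowest GS library was replicate 5. LOC101250719 followed with 5.78, 3.58 and 6.81 FPKM in the GS libraries and 0.828, 2.64 and 1.55 in the NGS libraries (1.28 ± 0.20 SE, adjusted p = 0.00946). In LOC101264881, the values were 5.7, 3.92 and 6.65 FPKM in the GS libraries and 0.931, 3.46 and 1.21 in the NGS libraries (1.24 ± 0.24 SE, adjusted p = 0.0342), and GS replicate 5 lay only just above NGS replicate 5. This closeness of the replicate 5 libraries recurs in many genes below.

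The remaining upregulated DEGs were LOC101248539, LOC101248444 and LOC112940947, all below 10 FPKM. LOC101248539 had 6.69, 5.65 and 7.09 FPKM in the GS libraries and 1.75, 2.77 and 3.26 in the NGS libraries (1.07 ± 0.20 SE, adjusted p = 0.0326). LOC101248444 had 2.12, 2.45 and 3.09 FPKM in the GS libraries and 0.696, 0.17 and 0.448 in the NGS libraries (1.31 ± 0.22 SE, adjusted p = 0.0145), and for LOC112940947 the values were 7.06, 5.63 and 8.17 FPKM in the GS libraries and 1.45, 1.53 and 3.29 in the NGS libraries (1.40 ± 0.26 SE, adjusted p = 0.0332). In all 3 genes every GS library was above every NGS library. The downregulated DEG, LOC112941010, is a small nucleolar RNA gene, a class whose products guide chemical changes of ribosomal RNA. It had 0, 1 and 1 reads in the GS libraries and 21, 4 and 14 in the NGS libraries, so its log2 difference of -2.08 ± 0.39 (SE, adjusted p = 0.0326) rests on few reads. In the GSs at 0, 6, 24, 48 and 96 h, its mean FPKM was 2.12 to 18.6.

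The antenna protein genes were higher in the GSs in every library. Of 17 antenna genes that carry a symbol, all 17 were tested, and for all 17 the lowest GS library was above the highest NGS library, against 11.5% of all genes tested. Their median log2 difference was 1.64 (range 0.92 to 2.43), against -0.00 over all genes tested, and 1.40 when the FPKM sums were set equal. None passed as a DEG (0 of 17, against 0.0398% of all genes tested), while 15 had an unadjusted p under 0.05 (11.4% of all genes were higher at that limit). Close copies in this family can share reads, and the counting of such reads is not given in the sources used here, so values of single members are less certain than those of the group. In bulk leaf samples, fewer cells of a type and less RNA per cell cannot be told apart.

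Among antenna genes, CAB9 and CAB1B stood highest. CAB9, which encodes a chlorophyll a/b-binding protein, had 1511, 977 and 2292 FPKM in the GS libraries and 288, 672 and 438 in the NGS libraries, a difference of 1.77 ± 0.48 SE, adjusted p = 0.131. CAB1B had 1539.5, 1351 and 1808 FPKM in the GS libraries and 494, 637 and 729 in the NGS libraries (1.34 ± 0.49 SE, adjusted p = 0.168). In both genes GS replicate 6 was the highest library and NGS replicate 4 the lowest, and the NGS value nearest to the GSs was that of replicate 5 for CAB9 and of replicate 6 for CAB1B.

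Cab-3C showed the largest difference of the family. It had 119, 119 and 251 FPKM in the GS libraries and 23.9, 46 and 18.9 in the NGS libraries (2.43 ± 0.76 SE, adjusted p = 0.139), so even the nearest libraries, GS replicate 5 and NGS replicate 5, were far apart. The lowest adjusted p of the family were those of CAB4, with 243, 198 and 369.9 FPKM in the GS libraries and 91.7, 89.3 and 69.8 in the NGS libraries (1.64 ± 0.37 SE, adjusted p = 0.0784), and LOC101267774, also listed as CAB3A, with 1334, 796 and 1891 FPKM in the GS libraries and 307, 477 and 378 in the NGS libraries (1.72 ± 0.39 SE, adjusted p = 0.0807). CAB11 had 452, 302 and 643 FPKM in the GS libraries and 93.1, 148 and 95.3 in the NGS libraries (2.01 ± 0.57 SE, adjusted p = 0.135). The least expressed members, CAB12 and Cab-1A, stayed below 9 FPKM in every library, and Cab-1A had the smallest difference, 0.92 ± 0.76 SE, adjusted p = 0.563.

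When the median of log2(FPKM + 1) over the 17 antenna genes was taken in each library, the GSs had 8.03, 7.64 and 8.53 in replicates 4, 5 and 6, and the NGSs 6.53, 6.53 and 6.28. The difference of the group means was 1.62 (pooled SD 0.334, n = 3 and 3), and leaving out any single library or changing the scale gave 1.38 to 1.83. Without NGS replicate 5, 4 of the 17 became DEGs (198 of all genes tested were then higher, 0.986%), and without replicate 5 of both groups 6 did (481 of all genes, 2.39%). When NGS replicate 4 was left out, no gene tested was a DEG.

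Genes of photosystem II and the electron carriers lay on the same side of 0 as the antenna genes. All 8 genes of the list were higher in the GSs, with log2 differences of 1.00 to 1.61 and a median of 1.22. Of these, 7 had groups that did not overlap (11.5% of all genes separated upwards). All 8 had an unadjusted p under 0.05 (11.4% of all genes were higher at that limit), but none was a DEG. PsbQ, an extrinsic subunit of the water-splitting complex, had 3898, 2981 and 5240.5 FPKM in the GS libraries and 970.1, 2225 and 1818 in the NGS libraries (1.32 ± 0.43 SE, adjusted p = 0.143). PSBP, its neighbour in that complex, had 2373, 1657 and 2966 FPKM in the GS libraries and 618, 1246 and 1048 in the NGS libraries (1.28 ± 0.36 SE, adjusted p = 0.134). PSBR, the most abundant gene of the list, had 9757, 8744 and 12611 FPKM in the GS libraries and 2721, 7367 and 6367 in the NGS libraries (1.03 ± 0.32 SE, adjusted p = 0.139). In these 3 genes NGS replicate 4 was the lowest library and NGS replicate 5 the highest of its group.

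PETE encodes plastocyanin, the copper protein that carries electrons from the cytochrome complex to photosystem I. It had 2005, 1337 and 2587 FPKM in the GS libraries and 353, 1015 and 773 in the NGS libraries (1.55 ± 0.44 SE, adjusted p = 0.135). PSBS, which lets photosystem II shed excess light as heat, was the member whose groups overlapped, with 459.7, 192 and 579.7 FPKM in the GS libraries and 61.9, 145 and 198 in the NGS libraries (1.61 ± 0.48 SE, adjusted p = 0.135). There, GS replicate 5 lay below NGS replicate 6. On the log2 scale, the median of the 8 genes was 10.86, 10.49 and 11.23 in the GS libraries and 9.03, 10.08 and 9.98 in the NGS libraries. Their median difference was 0.88 without NGS replicate 4 and 1.49 without NGS replicate 5. In the latter fit, 4 of the 8 were DEGs, against 1.34% of all genes, and in the former no gene tested was a DEG.

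**Figure D2:**
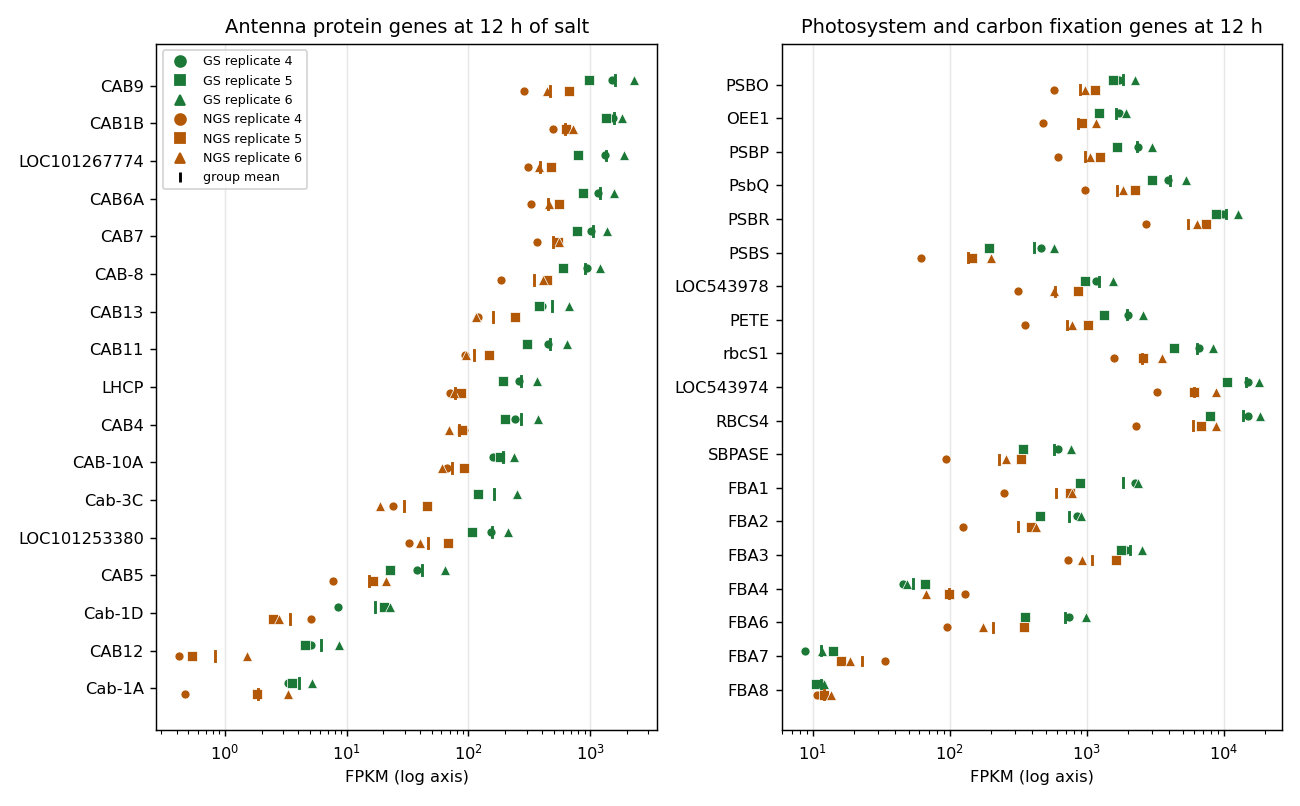
FPKM on a log axis of 17 antenna genes (left) and 19 genes of photosystem II, the electron carriers and carbon fixation (right) in each 12 h library. Green symbols are GSs and orange symbols NGSs, circles, squares and triangles are replicates 4, 5 and 6, and black bars are group means. All green symbols lie right of all orange symbols in the left panel, whereas PSBS, RBCS4 and FBA8 overlap and FBA4 and FBA7 are reversed in the right panel.

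In carbon fixation, the 3 genes of the small subunit of Rubisco, the enzyme that binds CO2, had higher means in the GSs. LOC543974 (RBCS-2A) had 14869, 10566 and 18098 FPKM in the GS libraries and 3249.7, 6044 and 8718 in the NGS libraries (1.35 ± 0.41 SE, adjusted p = 0.137). RBCS4 had 15072, 7949.8 and 18232 FPKM in the GS libraries and 2269, 6779 and 8722 in the NGS libraries (1.34 ± 0.49 SE, adjusted p = 0.168), and its groups overlapped because GS replicate 5 lay below NGS replicate 6. rbcS1 had 6584, 4303 and 8319 FPKM in the GS libraries and 1576, 2553 and 3503 in the NGS libraries (1.35 ± 0.53 SE, adjusted p = 0.199). SBPASE, a phosphatase that helps to rebuild the CO2 acceptor, had 619, 341 and 763 FPKM in the GS libraries and 93.5, 332 and 256 in the NGS libraries (1.44 ± 0.39 SE, adjusted p = 0.131), and GS replicate 5 and NGS replicate 5 were almost level. These small-subunit genes are near copies of each other, and reads could be split between them.

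The fructose-bisphosphate aldolase genes, which serve the Calvin cycle or glycolysis, did not all lie on the same side of 0. FBA6 had 738, 354 and 989.6 FPKM in the GS libraries and 94.7, 349 and 174 in the NGS libraries (1.82 ± 0.55 SE, adjusted p = 0.137), and FBA1 had 2225, 885 and 2376 FPKM in the GS libraries and 247, 753 and 773 in the NGS libraries (1.67 ± 0.48 SE, adjusted p = 0.135). FBA2 and FBA3 were also higher in all GS libraries. FBA7, in contrast, had 8.74, 14.1 and 11.7 FPKM in the GS libraries and 33.8, 16 and 18.7 in the NGS libraries (-0.88 ± 0.27 SE, adjusted p = 0.138), and FBA4 had 45.2, 66.3 and 48.9 FPKM in the GS libraries and 128, 98.2 and 67 in the NGS libraries (-0.83 ± 0.35 SE, adjusted p = 0.223), with every GS library below every NGS library in both. Over the 11 carbon fixation genes the median log2 difference was 1.35 (range -0.88 to 1.82). Of these, 7 separated upwards and 2 downwards (11.5% and 9.43% of all genes), and 8 and 2 had an unadjusted p under 0.05 (11.4% and 5.82%). None was a DEG. Without NGS replicate 5 there were 3 DEGs, all higher (0.986% of all genes). Without replicate 5 of both groups there were 5 higher and 1 lower (2.39% and 0.528% of all genes). The log2 median of the list was lowest in NGS replicate 4 (7.01), and without that library no gene tested was a DEG.

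Genes on the chloroplast genome itself differed less. Of 33 tested, 31 had a positive difference, against 49.6% of all genes (median 0.78, range -0.40 to 1.37). Of the 33, 14 were separated upwards and none downwards (11.5% and 9.43% of all genes), and 8 were higher at an unadjusted p under 0.05 (11.4% of all genes). None was a DEG. psbA, which encodes the reaction-centre protein D1, had 126, 136 and 135 FPKM in the GS libraries and 100.4, 73.7 and 84.4 in the NGS libraries. All GS libraries were above all NGS libraries, but the SE, which draws on all 12 groups, exceeded the difference (0.62 ± 0.74 SE, adjusted p = 0.708). atpE, a subunit of the chloroplast ATP synthase, had 134, 119 and 126 FPKM in the GS libraries and 38.6, 60.9 and 104 in the NGS libraries (1.00 ± 0.55 SE, adjusted p = 0.36). atpB, another subunit, overlapped, with 41.1, 21.9 and 39.4 FPKM in the GS libraries and 3.96, 27.7 and 14.9 in the NGS libraries (1.37 ± 0.56 SE, adjusted p = 0.216), and rbcL, the large subunit of Rubisco, overlapped as well, with 38.9, 37.8 and 42.7 FPKM in the GS libraries and 43, 11.2 and 25.8 in the NGS libraries (0.74 ± 0.84 SE, adjusted p = 0.689).

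Among 19 genes of pigment synthesis and turnover, the median log2 difference was 0.45 and none was a DEG. Of these, 6 separated upwards and 1 downwards (11.5% and 9.43% of all genes), and 9 were higher at an unadjusted p under 0.05 (11.4% of all genes). POR encodes an enzyme that makes chlorophyll's precursor in the light. It had 81.8, 79.8 and 102 FPKM in the GS libraries and 33.4, 29.8 and 31.9 in the NGS libraries (1.44 ± 0.59 SE, adjusted p = 0.218). Psy1, a phytoene synthase that opens carotenoid synthesis, had 78.5, 27.9 and 74.9 FPKM in the GS libraries and 9.38, 26 and 57.1 in the NGS libraries (1.14 ± 0.37 SE, adjusted p = 0.143), and its groups overlapped. SGR1 stood at the other end. Its protein removes magnesium from chlorophyll when leaves degreen, and its level was 16.6, 26.5 and 18.1 FPKM in the GS libraries and 47.1, 54 and 88.5 in the NGS libraries, with every GS library below every NGS library but a difference of -1.56 ± 0.84 SE, adjusted p = 0.342.

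The list of light receptors and clock genes had a median of 0.13, which became -0.08 when FPKM sums were set equal and -0.04 with total reads as the scale, and no DEG among 18. PHOT2, a blue-light receptor for chloroplast movement, had 41.3, 23.6 and 36.1 FPKM in the GS libraries and 9.45, 20.8 and 22.8 in the NGS libraries (0.94 ± 0.29 SE, adjusted p = 0.138). CRY3 had 10.1, 9.19 and 10.6 FPKM in the GS libraries and 3.4, 5.57 and 7.22 in the NGS libraries (0.82 ± 0.27 SE, adjusted p = 0.143). These were 2 of the 3 genes of the list that separated upwards, and DET1 separated downwards (11.5% and 9.43% of all genes).

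The glutamine synthetase genes, which bind ammonium into amino acids, lay on opposite sides of 0. GS2, the glutamine synthetase of the chloroplast, had 992, 459 and 1079 FPKM in the GS libraries and 109.8, 424 and 336 in the NGS libraries (1.65 ± 0.46 SE, adjusted p = 0.133). GS1, listed as the other glutamine synthetase, had 79.7, 82.6 and 81.5 FPKM in the GS libraries and 167, 69 and 181 in the NGS libraries (-0.65 ± 0.28 SE, adjusted p = 0.232), and its groups overlapped through NGS replicate 5. ProT1, a proline transporter, had 10.1, 14.8 and 9.72 FPKM in the GS libraries and 26.1, 21.46 and 16.8 in the NGS libraries (-0.84 ± 0.28 SE, adjusted p = 0.146), lower in all GS libraries. GABA-TP2, a transaminase that breaks down the stress metabolite GABA, had 430.3, 149 and 404 FPKM in the GS libraries and 54.9, 58.1 and 225 in the NGS libraries (1.71 ± 0.78 SE, adjusted p = 0.261), with GS replicate 5 below NGS replicate 6. Of the 33 genes of amino acid metabolism tested, 6 separated upwards and 4 downwards (11.5% and 9.43% of all genes). At an unadjusted p under 0.05, 5 were higher and 4 lower (11.4% and 5.82% of all genes). None was a DEG, and the median of 0.02 turned to -0.22 with equal FPKM sums.

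In the lists of aquaporins, XTH cell wall enzymes and expansins, all genes that separated were higher in the GSs. Aquaporins of the plasma membrane pass water between cells, and 5 of 13 aquaporin genes separated upwards and 0 downwards (11.5% and 9.43% of all genes). The median over the 13 was 0.21 and turned to -0.02 with equal FPKM sums. PIP2-7 had 41, 37.4 and 62.4 FPKM in the GS libraries and 11.1, 17.6 and 19.3 in the NGS libraries (1.495 ± 0.39 SE, adjusted p = 0.13). PIP2-9 had 45.5, 34.8 and 59.3 FPKM in the GS libraries and 12.6, 11.5 and 24.3 in the NGS libraries (1.52 ± 0.49 SE, adjusted p = 0.142). PIP2-6, the most abundant of them, had 348, 358 and 432 FPKM in the GS libraries and 164, 220.4 and 215 in the NGS libraries (0.93 ± 0.24 SE, adjusted p = 0.131), and PIP1-3 had 285, 278 and 353 FPKM in the GS libraries and 87, 169 and 173 in the NGS libraries (1.15 ± 0.33 SE, adjusted p = 0.135). None of the 13 passed as a DEG.

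The largest positive log2 difference of all genes tested belonged to LOC101248254 (gast1), a gibberellin-stimulated transcript. It had 47.7, 96.3 and 121 FPKM in the GS libraries and 2.81, 2.82 and 14.4 in the NGS libraries (3.78 ± 0.94 SE, adjusted p = 0.117), so that the lowest GS library was above the highest NGS library by more than the range within the NGSs. XTH16, a cell wall enzyme that cuts and rejoins xyloglucan during growth, had 24, 29.1 and 51.3 FPKM in the GS libraries and 5.49, 2.21 and 20.6 in the NGS libraries (2.15 ± 0.75 SE, adjusted p = 0.155). Of 16 XTH genes, 3 separated upwards and 0 downwards (median 0.39), and of 12 expansins, proteins that loosen cell walls, 3 and 0 (median 0.67), against 11.5% and 9.43% of all genes. EXP5 had 12.3, 25.1 and 26.7 FPKM in the GS libraries and 6.7, 10.6 and 6.99 in the NGS libraries (1.25 ± 0.42 SE, adjusted p = 0.145). No XTH or expansin gene was a DEG.

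In the auxin list, 10 of 26 genes separated upwards and 0 downwards (11.5% and 9.43% of all genes). At an unadjusted p under 0.05, 6 were higher (11.4% of all genes), and the median was 0.24, or 0.06 with equal FPKM sums. IAA3, a repressor of auxin response that auxin itself turns on, had 304, 286 and 159 FPKM in the GS libraries and 77.2, 123.2 and 80.7 in the NGS libraries (1.38 ± 0.45 SE, adjusted p = 0.142). GH3-18, listed as a non-coding RNA, had 14.6, 10.1 and 14.7 FPKM in the GS libraries and 3, 3.13 and 2.08 in the NGS libraries (1.92 ± 0.53 SE, adjusted p = 0.131). GH3-10, of the family that joins auxin to amino acids, had 89.5, 62.4 and 94 FPKM in the GS libraries and 17.1, 37.9 and 44.7 in the NGS libraries (1.36 ± 0.47 SE, adjusted p = 0.149). MIR167b, a precursor of the microRNA that targets auxin response factors, had 16.5, 10.2 and 22.5 FPKM in the GS libraries and 1.65, 6.04 and 4.27 in the NGS libraries (1.85 ± 0.43 SE, adjusted p = 0.0924). None of the 26 was a DEG. The auxin response factor gene ARF24, which is not in the list, separated downwards (-0.78 ± 0.22 SE, adjusted p = 0.135).

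Abscisic acid and dehydration genes tended the other way, and NGS replicate 5 sat apart. LE16, a lipid-transfer protein gene that drought and abscisic acid turn on, had 276, 560.2 and 214 FPKM in the GS libraries and 4408, 547 and 1802 in the NGS libraries. NGS replicates 4 and 6 were far above all GS libraries, while NGS replicate 5 lay within the GS range (-2.34 ± 0.56 SE, adjusted p = 0.105). LE25, a late embryogenesis abundant protein that protects drying cells, had 10.1, 23.9 and 5.12 FPKM in the GS libraries and 169, 17.83 and 537 in the NGS libraries (-3.33 ± 1.31 SE, adjusted p = 0.201). TAS14, a dehydrin, had 57.2, 118 and 82.9 FPKM in the GS libraries and 323, 32.9 and 1259.6 in the NGS libraries (-1.52 ± 1.11 SE, adjusted p = 0.504). ASR1, a small protein of ripening and water stress, had 321, 439.9 and 255 FPKM in the GS libraries and 1372, 348 and 1149 in the NGS libraries (-1.31 ± 0.46 SE, adjusted p = 0.151), and Asr4 had 233, 293 and 228 FPKM in the GS libraries and 940.0, 272 and 864 in the NGS libraries (-1.27 ± 0.44 SE, adjusted p = 0.151). In each of these genes, NGS replicate 5 lay within or below the range of the GSs and the other NGS libraries lay above it.

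Of 19 tested genes of this list, 1 separated upwards and 3 downwards (11.5% and 9.43% of all genes), and 1 and 7 had an unadjusted p under 0.05 (11.4% and 5.82%). None was a DEG, and the median was -0.56 (-0.80 with equal FPKM sums). Without NGS replicate 5, 4 of the 19 were DEGs, all lower in the GSs (72 of all genes tested, 0.358%), and without NGS replicate 4 no gene tested was a DEG. The per-library median of the list was 5.70, 5.81 and 5.31 for the GS libraries and 6.78, 5.38 and 6.93 for the NGS libraries. CYP707A1, the enzyme that degrades abscisic acid, was the gene that separated upwards, with 8.36, 11.9 and 12 FPKM in the GS libraries and 2.42, 2.67 and 6.62 in the NGS libraries (1.34 ± 0.40 SE, adjusted p = 0.135). NCED1, an enzyme of abscisic acid synthesis, had 36.6, 15.5 and 25 FPKM in the GS libraries and 4.02, 8.87 and 22.3 in the NGS libraries (1.27 ± 0.63 SE, adjusted p = 0.304), and its groups overlapped.

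Sodium, potassium and proton transport genes differed by small amounts. SOS1, the antiporter that pumps sodium out of the cell, had 18.3, 18.1 and 17.7 FPKM in the GS libraries and 26.6, 20.2 and 22.9 in the NGS libraries. All GS libraries were below all NGS libraries, and the difference was -0.34 ± 0.11 SE, adjusted p = 0.143. NHX2, an antiporter of internal membranes, had 14.1, 13.6 and 12.9 FPKM in the GS libraries and 23.4, 17.1 and 14 in the NGS libraries (-0.37 ± 0.14 SE, adjusted p = 0.2). VP1, counted here with the proton pumps, had 180.2, 113 and 190.3 FPKM in the GS libraries and 65.8, 128 and 79.2 in the NGS libraries (0.84 ± 0.23 SE, adjusted p = 0.135), with GS replicate 5 below NGS replicate 5. Of the 14 genes, 1 separated upwards and 4 downwards (11.5% and 9.43% of all genes), none was a DEG, and the median was -0.10 (-0.32 with equal FPKM sums).

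**Figure D3:**
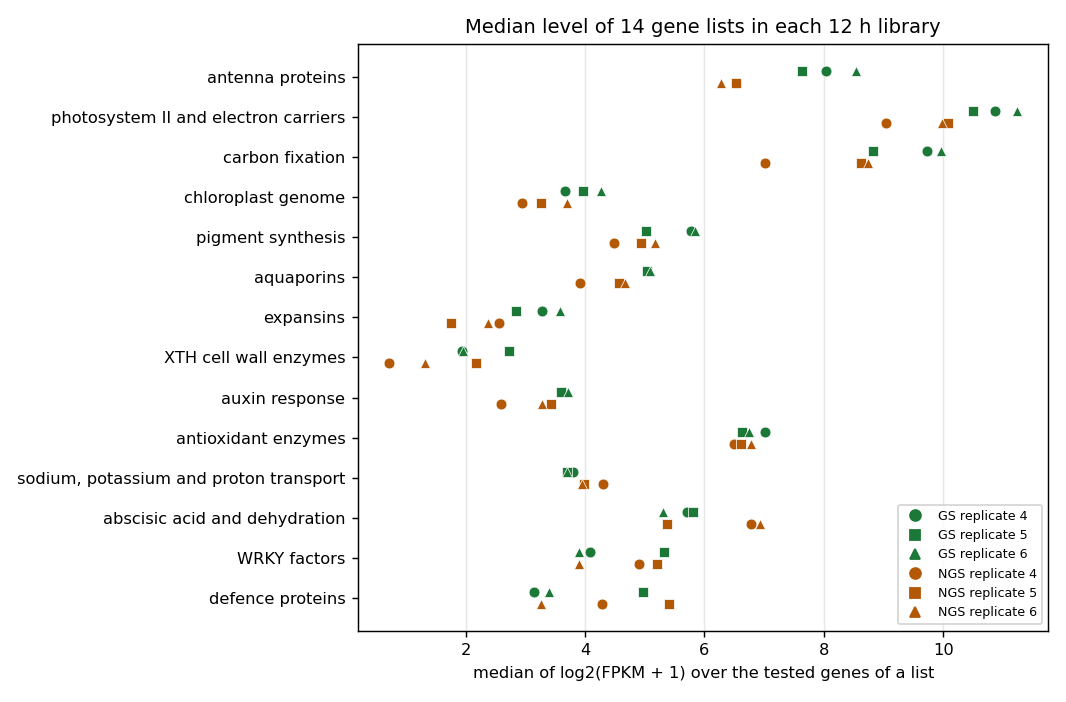
Median of log2(FPKM + 1) over the tested genes of each of 14 lists (rows) in each 12 h library, with GSs in green and NGSs in orange and circles, squares and triangles for replicates 4, 5 and 6. The antenna row is split by colour, from 6.28 to 6.53 in the NGSs and from 7.64 to 8.53 in the GSs, while in the rows of WRKY factors and defence proteins replicate 5 lies highest in both colours.

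In many genes of defence proteins and of WRKY transcription factors, which switch on defence and stress genes, replicate 5 was the highest library of both groups. This held for 11 of 20 WRKY genes, 10 of 21 defence genes and 9 of 16 XTH genes, against 11.6% of all genes, and for none of the antenna, photosystem II or carbon fixation genes. PR1b1, a pathogenesis-related protein that salicylic acid turns on, had 129.96, 4157 and 330.3 FPKM in the GS libraries and 3506, 3904 and 394 in the NGS libraries (-1.63 ± 1.34 SE, adjusted p = 0.561), so the libraries spanned a wide range within both groups. WRKY46 had 4.52, 66.9 and 1.49 FPKM in the GS libraries and 47.7, 143 and 5.65 in the NGS libraries (-1.88 ± 1.25 SE, adjusted p = 0.457), and WRKY41 had 142, 235 and 57.3 FPKM in the GS libraries and 46.4, 253 and 28.6 in the NGS libraries (0.82 ± 0.77 SE, adjusted p = 0.617). 

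Some defence genes were separated in spite of this. THT1-3, an enzyme that makes phenolic amides for the cell wall, had 7.85, 21.3 and 3.29 FPKM in the GS libraries and 103, 47.5 and 53.5 in the NGS libraries (-2.78 ± 0.82 SE, adjusted p = 0.135). NP24-I, an osmotin-like protein that salt is known to turn on, had 7.09, 42 and 4.29 FPKM in the GS libraries and 77.4, 55.9 and 63.8 in the NGS libraries (-2.43 ± 0.77 SE, adjusted p = 0.139). CHI3, a chitinase, had 38.4, 206 and 49.2 FPKM in the GS libraries and 415, 418 and 391 in the NGS libraries (-2.46 ± 1.30 SE, adjusted p = 0.333). In all 3, GS replicate 5 was the GS library nearest to the NGSs. Of the 21 defence genes, 0 separated upwards and 7 downwards (11.5% and 9.43% of all genes), and 1 and 3 had an unadjusted p under 0.05 (11.4% and 5.82%). None was a DEG, and the median was -0.66 (-0.83 with equal FPKM sums). Of 20 WRKY genes, 1 separated upwards and 3 downwards (median -0.34) against 11.5% and 9.43% of all genes, with none a DEG. The lowest WRKY median over all alternatives was -0.56 and the highest 0.00.

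Enzymes against reactive oxygen were mixed. GME1, an epimerase on the route to ascorbate, had 70.5, 33.4 and 77.7 FPKM in the GS libraries and 8.13, 21.46 and 26.1 in the NGS libraries, every GS library above every NGS library (1.71 ± 0.38 SE, adjusted p = 0.0784). FESOD, an iron superoxide dismutase, had 701, 587 and 732 FPKM in the GS libraries and 140.3, 557 and 357 in the NGS libraries (1.14 ± 0.35 SE, adjusted p = 0.137), and CAT2, a catalase, had 551, 341 and 631 FPKM in the GS libraries and 117, 387 and 257 in the NGS libraries (1.11 ± 0.29 SE, adjusted p = 0.13), its groups overlapping through replicate 5. The ascorbate peroxidase gene APX2 was lower in all GS libraries, with 99.1, 82.8 and 73.1 FPKM in the GS libraries and 113, 134 and 130.13 in the NGS libraries (-0.56 ± 0.26 SE, adjusted p = 0.259). Of 24 genes, 7 separated upwards and 2 downwards (11.5% and 9.43% of all genes), and 10 and 1 had an unadjusted p under 0.05 (11.4% and 5.82%). None was a DEG (median 0.34, and 0.10 with equal FPKM sums). Without NGS replicate 5, 4 were DEGs, all higher (0.986% of all genes), and without NGS replicate 4 no gene tested was a DEG.

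**Figure D4:**
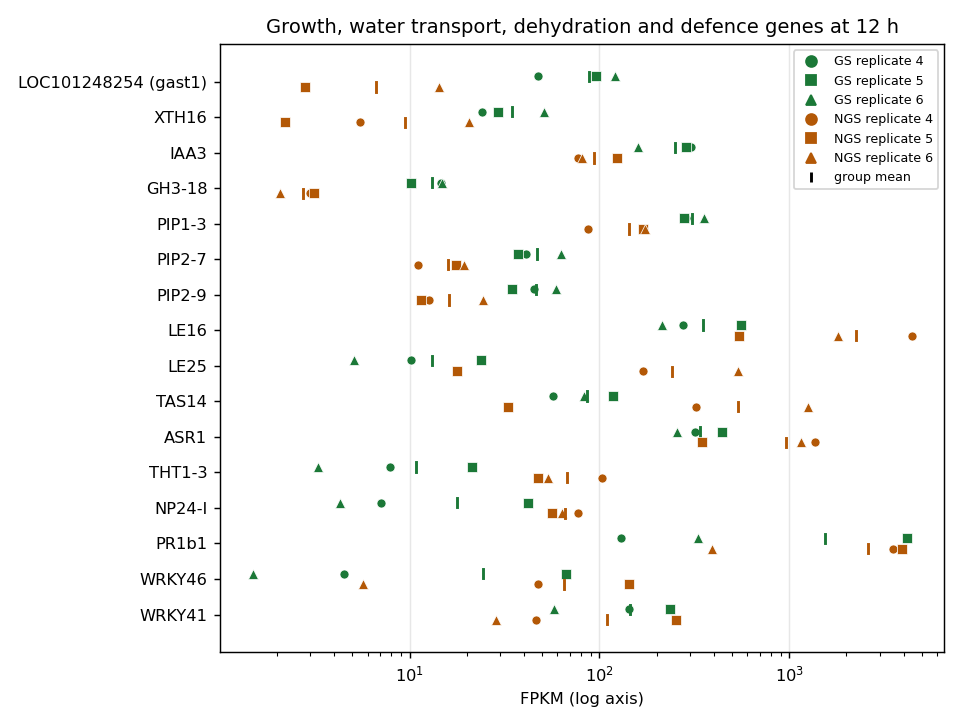
FPKM on a log axis of 16 genes of growth, water transport, dehydration and defence in each 12 h library, with GSs in green, NGSs in orange, circles, squares and triangles for replicates 4, 5 and 6 and black bars for group means. The orange squares of LE16, LE25, TAS14 and ASR1 (NGS replicate 5) lie among or to the left of the green symbols, and the green and orange squares of WRKY46 and PR1b1 both lie to the right.

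The remaining lists held no DEG, and 11.5% and 9.43% of all genes separated upwards and downwards. Of 26 ethylene genes, 1 separated upwards and 4 downwards (median -0.14). Of 14 jasmonate genes, 0 and 1 did (median -0.14, which was 0.05 without NGS replicate 4), of 19 heat shock genes 2 and 1 (median -0.16), of 18 gibberellin and brassinosteroid genes 3 and 1 (median 0.16), and of 11 cytokinin genes 2 and 1 (median 0.02, which was -0.11 with equal FPKM sums and -0.16 without NGS replicate 5). GAI, a DELLA repressor of gibberellin signalling, had 35.3, 23.7 and 36.6 FPKM in the GS libraries and 13.3, 20.5 and 19 in the NGS libraries (0.82 ± 0.22 SE, adjusted p = 0.131), and CKX1, a cytokinin oxidase, had 16.7, 11.4 and 16.9 FPKM in the GS libraries and 4.88, 6.59 and 8.13 in the NGS libraries (1.09 ± 0.33 SE, adjusted p = 0.136). Both were separated upwards. This GAI is not LOC101265384, the gene that the paper calls DELLA protein GAI. LOC101265384 had a log2 difference of -0.09 ± 0.31 SE, adjusted p = 0.913, and its groups overlapped. ERF-D2, an ethylene response factor of no list, had 2.32, 2.78 and 1.39 FPKM in the GS libraries and 33.4, 3.61 and 11.6 in the NGS libraries (-2.02 ± 0.62 SE, adjusted p = 0.137), and the metallothionein MT2 had 2.13, 2.98 and 1.15 FPKM in the GS libraries and 9.74, 5.76 and 19.7 in the NGS libraries (-1.94 ± 0.57 SE, adjusted p = 0.135).

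Whether the difference at 12 h was itself different from that at other hours was tested as the difference at 12 h less the difference at the other hour. These comparisons share the 12 h libraries and are not independent of each other or of the comparison above. Against 0 h, 1293 genes passed (6.44%), 982 upwards (4.89%) and 311 downwards (1.55%), and the split turned with the scale, since 75.9% of the calls were upwards as deposited, 59.1% with total reads and 37.4% with equal FPKM sums. Against 6 h, 2028 genes passed (10.1%), 1357 upwards (6.75%) and 671 downwards (3.34%), with an upward share of 66.9% as deposited, 35.6% with equal FPKM sums and 39.5% with total reads. Against 24 h, 1 gene passed (0.00498%). At 0, 6 and 24 h themselves, 1018, 883 and 5 genes differed between GSs and NGSs (5.07%, 4.4% and 0.0249%).

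The antenna genes reversed between 6 and 12 h. All 17 changed upwards against 6 h (12 h less 6 h, range 2.58 to 6.45, against 6.75% of all genes), and all 17 still did with equal FPKM sums. At 6 h, 0 of the 17 had been higher in the GSs and 13 were called lower (2.41% of all genes), with a median of -2.02. Cab-3C had a GS mean of 168 ± 152 FPKM at 6 h and 163 ± 76.1 at 12 h, and an NGS mean of 1567 ± 914 and 29.6 ± 14.4 (± SD, n = 3). The change of its difference was 5.94 ± 1.07 SE, adjusted p = 0.00223. CAB9 had a GS mean of 965 ± 229.7 FPKM at 6 h and 1593 ± 661 at 12 h, and an NGS mean of 2940.4 ± 1042 and 466 ± 193 (3.33 ± 0.67 SE, adjusted p = 0.00371). In both genes the NGS mean was lower at 12 h than at 6 h by far more than the GS mean moved. Against 0 h, 1 of the 17 passed upwards, against 4.89% of all genes, namely CAB4 (1.83 ± 0.52 SE, adjusted p = 0.029). Against 24 h, when the median difference was 0.72, none did.

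All 8 genes of photosystem II and the carriers and 8 of 11 carbon fixation genes also changed upwards against 6 h (6.75% of all genes). FBA4 and FBA7 changed downwards (3.34% of all genes). Of the chloroplast genome genes, 5 of 33 changed upwards against 6 h, nearer to the 6.75% of all genes. PSBS had a GS mean of 57.6 ± 32.5 FPKM at 6 h and 411 ± 198 at 12 h, and an NGS mean of 221 ± 38.2 and 135 ± 68.8 (3.65 ± 0.67 SE, adjusted p = 0.00235), so there the GS mean was higher at 12 h and the NGS mean lower. For FBA6 the change was 4.61 ± 0.78 SE, adjusted p = 0.00175, for FBA7 -1.48 ± 0.39 SE, adjusted p = 0.0141, and for GS2 2.70 ± 0.65 SE, adjusted p = 0.00887. RBCS4 changed by 2.46 ± 0.69 SE, adjusted p = 0.0208. Chloroplast genome genes were lower in the GSs at 0 h, with a median of -1.08 and 9 of 33 called lower (3.56% of all genes). Against 0 h, 3 of the 33 passed upwards (4.89% of all genes).

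For several of the growth genes named above, the difference changed sign against 0 h and passed. LOC101248254 (gast1) had a GS mean of 323 ± 50.9 FPKM at 0 h and 88.5 ± 37.5 at 12 h, and an NGS mean of 1758 ± 414 and 6.66 ± 6.67 (± SD, n = 3), a change of 6.205 ± 1.33 SE, adjusted p = 0.0069 from 0 h and of 5.23 ± 1.33 SE, adjusted p = 0.0123 from 6 h. XTH16 had a GS mean of 6.3 ± 4.34 FPKM at 0 h and 34.8 ± 14.5 at 12 h, and an NGS mean of 34.9 ± 8.5 and 9.42 ± 9.79 (4.604 ± 1.07 SE, adjusted p = 0.0107). PIP2-9 (2.38 ± 0.70 SE, adjusted p = 0.0328), IAA3 (2.40 ± 0.64 SE, adjusted p = 0.0216) and MIR167b (2.45 ± 0.61 SE, adjusted p = 0.0152) went the same way. These genes were higher in the NGSs at 0 h and in the GSs at 12 h. ARF24, of no list, went the other way, from 0.88 at 0 h to -0.78 at 12 h (-1.66 ± 0.31 SE, adjusted p = 0.00316). Of the aquaporins 4 of 13, of the XTH genes 5 of 16, of the auxin genes 3 of 26 and of the expansins 1 of 12 passed upwards against 0 h, against 4.89% of all genes, and none passed downwards.

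Defence genes reversed in the other direction. At 6 h, 7 of 21 were called higher in the GSs (1.99% of all genes), with a median of 1.67, and 8 of 21 changed downwards between 6 and 12 h (3.34% of all genes). PR1b1 had a GS mean of 59982 ± 25886 FPKM at 6 h and 1539 ± 2269.5 at 12 h, and an NGS mean of 7558 ± 12109 and 2601 ± 1922 (-6.60 ± 1.89 SE, adjusted p = 0.0227). WRKY46 had a GS mean of 250.4 ± 98.7 FPKM at 6 h and 24.3 ± 36.9 at 12 h, and an NGS mean of 56.4 ± 94.8 and 65.3 ± 70.14 (-6.48 ± 1.76 SE, adjusted p = 0.0174). In both genes the SD of the NGSs at 6 h exceeded their mean. The median of the dehydration list was -0.56, -0.97 and -0.56 at 0, 6 and 12 h. At these hours 4, 4 and 0 of the 19 genes were called lower (3.56%, 2.41% and 0.00498% of all genes), while 7, 2 and 4 had a higher mean in the GSs. Against 0 h, 0 of 19 passed (6.44% of all genes). Against 6 h, 2 of 19 passed upwards (6.75% of all genes), NCED1 and CYP707A1.

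Against 24 h, the gene that passed was LOC101246010. It had 15.3, 15.3 and 17.5 FPKM in the GS libraries and 11.9, 15.8 and 11 in the NGS libraries at 12 h and at 24 h a GS mean of 11.9 ± 0.0613 and an NGS mean of 26.8 ± 1.81 (± SD, n = 3), a change of 1.41 ± 0.24 (SE, adjusted p = 0.0463). The groups overlapped at 12 h and were apart at 24 h.

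**Figure D5:**
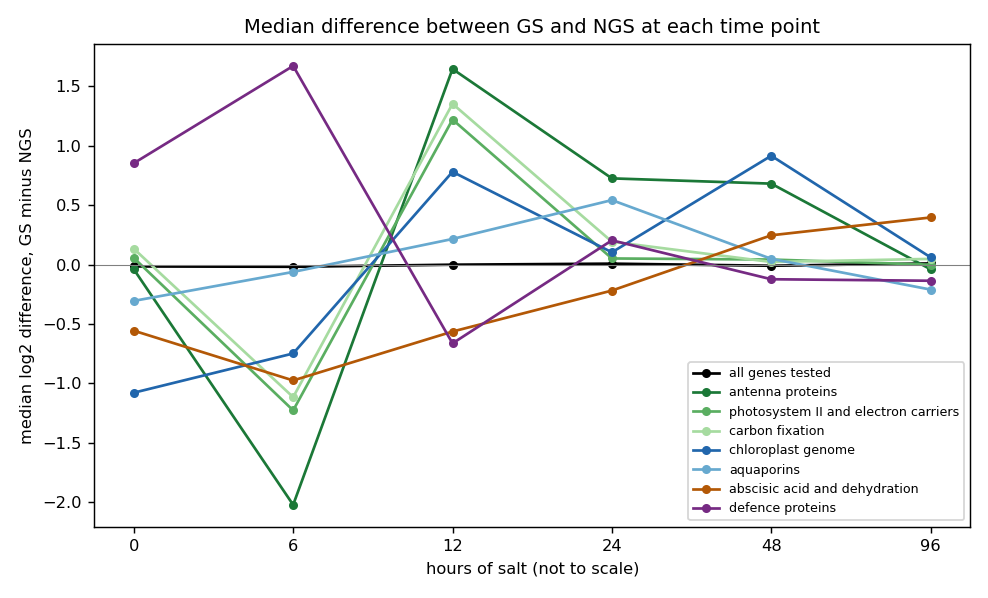
Median log2 difference GS minus NGS (y axis) of 7 gene lists and of all genes tested (black) at each hour of salt (x axis, not to scale), from 3 libraries a group. The antenna line runs from -2.02 at 6 h to 1.64 at 12 h and the defence line from 1.67 to -0.66, while the line of all genes stays near 0.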

How the data were processed

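Leaf RNA of GSs and NGSs was sequenced in 36 libraries on an Illumina HiSeq instrument, and the authors filtered and mapped the reads. The submitters' processing notes name HISAT2 2.0.5, featureCounts 1.5.0-p3, STAR-Fusion 1.2.0 and DESeq2 1.16.1, with no role given for each, and the paper names HISAT and an assembly of tomato. How featureCounts treated strand and shared reads is not given in the sources used here. The deposited FPKM values of 32246 genes, made by the authors, were used as they stand, and 4878 genes were at 0 throughout. All FPKM values were whole multiples of the value of 1 read (100% within 0.05 reads, 27368 genes), so reads and library totals were recovered from them.

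The 20090 genes that reached 1 FPKM in 3 or more libraries entered a limma fit of log2(FPKM + 1) on 12 group means (trend, 24 residual degrees of freedom), with p adjusted by Benjamini and Hochberg within each comparison. The 12 h groups were compared with each other, and their difference was set against that at 0, 6 and 24 h. Replicates are separate samples by their labels, and the p-values measure the spread between these. Alternatives were a pseudocount of 0.1, no filter, a minimum FPKM of 5, 2 other scales, the libraries compared alone, a replicate block, voom on the recovered reads and leaving out each library. The authors' own fold changes and p-values were not used.

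Members and the 22 gene lists (443 genes, 393 tested) were chosen with earlier results of these data known. Lists were drawn up by gene symbol from an annotation table of another assembly (SLM_r2.1), which matched 28942 identifiers and gave 2941 symbols, and no coordinates or sequences were used. Lists of AP2/ERF, ribosome, TIFY, dehydrin and DELLA genes, planned from protein sequences, were not run. The rule for named genes took all DEGs, the 20 genes the paper names, the 10 highest and 10 lowest differences among named genes that separated (FPKM of at least 5, unadjusted p under 0.01), and from each list the 3 most abundant and 2 most different. Those the results turn on are named, and the rest are given as counts and ranges. APX2, CAB12, CAB4, CAT2, CYP707A1, Cab-1A, DET1, FBA2, FBA3, FBA4, FBA8, GAI, GS1, NCED1, NHX2, Psy1, SBPASE, SOS1, TAS14 and rbcL were named after their values were seen. Tools were R 4.3.3, limma 3.58.1, Python 3.11.15, NumPy 2.4.6, pandas 2.3.3, numba 0.67.0 and matplotlib 3.10.9.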

Additional observations from a re-analysis of the deposited data

Results flagged for a closer look

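The following results were singled out because the difference between the GSs and NGSs at 12 h differed from that at another hour, by a test of the change itself. Against 0 h these were 1293 genes (6.44% of all genes), among them PIP2-9 (2.38), IAA3 (2.40), LOC101248254 (6.205) and XTH16 (4.604), each given as the change of the log2 difference. Against 6 h they were 2028 genes (10.1% of all genes), with positive changes in Cab-3C (5.94), CAB9 (3.33), CAB1B (3.36), PSBS (3.65), RBCS4 (2.46), FBA6 (4.61), GS2 (2.70), PIP2-9 (2.75), IAA3 (2.105), LOC101248254 (5.23) and LOC101262127 (3.62). FBA7 (-1.48), PR1b1 (-6.60) and WRKY46 (-6.48) changed the other way. Against 24 h it was 1 gene, LOC101246010 (1.41). The named genes were taken from those with full values in the report, after their values were seen. Of these 68 genes, 18 passed upwards and 1 downwards against 0 h (4.89% and 1.55% of all genes), and 43 and 7 against 6 h (6.75% and 3.34%). Many of the 68 were chosen by their difference at 12 h, which is a part of the change. Their counts can therefore not be read as an excess over all genes. All these changes share the 12 h libraries.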

How the results depend on the processing

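The 9 DEGs at 12 h became 3 with a pseudocount of 0.1, 4 with an FPKM of at least 5, 5 with equal FPKM sums, 5 with total reads as the scale, 15 with voom on the recovered reads (5 of the 9 kept) and 0 with only the libraries compared, where limma gave 2965 genes at an unadjusted p under 0.05. Leaving out a library gave 0 to 270, and leaving out replicate 5 of both groups, chosen after the data were seen, gave 587. The change from 0 h gave 538 to 1905 genes without a library and 716 without replicate 5 of both groups, against 1293. The change from 6 h gave 1236 with only the libraries compared and 1059 to 2704 without a library, against 2028. The change from 24 h, 1 gene, gave 0 with a pseudocount of 0.1, 0 without a filter, 0 with only the libraries compared, 0 to 4 without a library and 5 without replicate 5 of both groups. The causes were not tested beyond what fewer libraries or genes bring. The antenna median per library, 1.62, stayed within its SD at 1.38 to 1.83. Of the values of named genes and list medians, 1207 kept their side of the threshold or, with no test, moved by less than the replicate spread, 55 passed it newly, 66 no longer passed and 5 moved by more. No called value changed sign, whereas the list medians of light receptors, amino acid metabolism, aquaporins, jasmonate, cytokinin and WRKY factors did under 1 or more alternatives.

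At 12 h the replicate numbers gave no uniform pairing of the libraries. Deviations of libraries with the same number correlated at -0.097, 0.233 and 0.458 for replicates 4, 5 and 6, and those with different numbers at -0.473 to 0.299. The value of replicate 6 was the highest of that hour, whereas GS replicate 5 correlated best with NGS replicate 4 (0.299). Whether the numbers mark pairs was not tested further. At 6 h the same-number correlations were 0.124, 0.411 and 0.428. With a replicate block, 1 DEG was left at 12 h, 1590 and 2345 genes changed from 0 and 6 h, and 0 changed from 24 h.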

Other observations

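The named genes with the lowest differences at 12 h, apart from those described above, included transporters and regulators. ABCG35, a transporter of the ABC family, had 7.42, 12.7 and 7.83 FPKM in the GS libraries and 19.8, 19 and 19.4 in the NGS libraries (-1.02 ± 0.24 SE, adjusted p = 0.0952). PT3, a phosphate transporter, had 1.88, 2.85 and 1.26 FPKM in the GS libraries and 3.25, 4.83 and 7.09 in the NGS libraries (-0.999 ± 0.29 SE, adjusted p = 0.135). In both genes every GS library lay below every NGS library. The auxin response factor gene ARF24 had 15.4, 14 and 11.1 FPKM in the GS libraries and 33, 21.6 and 18.5 in the NGS libraries (-0.78 ± 0.22 SE, adjusted p = 0.135), and LOC543600, a transcription factor gene of the TGA type, had 34, 35 and 32.4 FPKM in the GS libraries and 68.5, 59.1 and 43.1 in the NGS libraries (-0.71 ± 0.22 SE, adjusted p = 0.137).

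Of 20 genes that the text of the study names by identifier, 12 had a positive log2 difference at 12 h, against 49.6% of all genes. Some of these were very small, as in XTH3 (0.01 ± 0.89 SE) and LOC101250636 (0.04 ± 0.48 SE), both with overlapping groups. Of the 20, 0 were DEGs (0.0448% of all genes tested), and 4 (against 11.5% of all genes) had groups that did not overlap, all with higher values in the GSs. The genes whose groups did not overlap were the antenna genes CAB6A, LOC101267774 and LOC101253380, and LOC101265059. CAB6A had 1157, 877 and 1578 FPKM in the GS libraries and 328, 558 and 456 in the NGS libraries (1.42 ± 0.50 SE, adjusted p = 0.155), and LOC101265059 had 24.8, 19.7 and 25.3 FPKM in the GS libraries and 12.9, 10.9 and 18.3 in the NGS libraries (0.71 ± 0.35 SE, adjusted p = 0.292). Among the 8 of the 20 with a negative log2 difference were LOC101254281 (-0.81 ± 0.38 SE, adjusted p = 0.264) and JAZ2, a repressor of jasmonate response (-1.20 ± 0.76 SE, adjusted p = 0.433), both with overlapping groups. The study came to these genes through results of the same libraries.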
